A study of Mus musculus with 4 samples.

Results

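DNA replication needs enzymes that license and fire origins, unwind and copy the template and supply the nucleotides. The RNA of 45 such genes was compared between AML12 cells in which Safb was knocked down and AML12 cells with a control hairpin. The genes were taken by symbol from the deposited table, and 45 of 45 were found among its 52192 gene identifiers. They were placed in 6 steps by the known role of the protein: origin recognition and licensing (9 genes), the CMG helicase (12), polymerases and primase (9), the sliding clamp and its loader (6), single-strand binding and Okazaki fragment joining (5) and nucleotide supply (4). AML12 is a mouse hepatocyte line. Its cells received lentivirus carrying either shSafb, the hairpin against Safb, or shCtrl, the control hairpin, and were collected 5 days later. Both groups were grown in DMEM/F12 with 10% fetal bovine serum, an ITS supplement and 0.1 uM dexamethasone, a glucocorticoid. Each group had 2 libraries of strand-specific total RNA depleted of ribosomal RNA. The labels name 1 hairpin against Safb. They do not say that a group's replicates came from different cultures, so a p-value measures no more than the spread between these libraries, which may be technical. The labels give no batch or date. Safb encodes a protein of the nuclear matrix, and the study concerned its role in heterochromatin.

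In mammalian cells the origin recognition complex (ORC), Cdc6 and Cdt1 load the MCM2-7 ring onto DNA before S phase, and geminin holds Cdt1 back afterwards. Cdc45 and GINS join the ring to make the active CMG helicase, polymerase alpha-primase lays down primers, and polymerases epsilon and delta extend them with the clamp PCNA, which replication factor C (RFC) loads. RPA coats the exposed single strands, Fen1 and Lig1 finish the Okazaki fragments, and ribonucleotide reductase and thymidylate synthase make the deoxynucleotides. Many of these genes are known targets of E2F transcription factors, which drive S-phase transcription in cycling cells, whereas most hepatocytes of the adult liver rest outside the cell cycle.

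Because E2F binding sites are known in many of these promoters, the bases upstream of the start site are shown for 6 genes: Cdc6, Mcm5 and Pola1, which were higher in shSafb cells, Mcm6, which was not past the threshold, and Pcna and Rpa3, which were lower. Each sequence is the 250 bases before the RefSeq start on GRCm38.p6, written 5′ to 3′ on the gene's own strand. Capitals mark every match, on either strand, to the letters TTTGGCGC, TTTCGCGC, TTTCCCGC or TTTGCCGC, and overlapping matches run together. The sequences come from RefSeq, from chr11:98907901-98908150 (plus strand) for Cdc6, chr8:75109259-75109508 (plus) for Mcm5, chrX:93632156-93632405 (minus) for Pola1, chr1:128359706-128359955 (minus) for Mcm6, chr2:132253181-132253430 (minus) for Pcna and chr6:8259142-8259391 (minus) for Rpa3. For these 6 genes the RefSeq start lay 0 to 350 bases from the gene start in GENCODE. The Cdc6 bases lie wholly inside the GENCODE gene, which begins at chr11:98907801. Those of Pcna and Rpa3 lie partly inside their GENCODE genes, whose 5′ ends are at chr2:132253314 and chr6:8259173.
Cdc6: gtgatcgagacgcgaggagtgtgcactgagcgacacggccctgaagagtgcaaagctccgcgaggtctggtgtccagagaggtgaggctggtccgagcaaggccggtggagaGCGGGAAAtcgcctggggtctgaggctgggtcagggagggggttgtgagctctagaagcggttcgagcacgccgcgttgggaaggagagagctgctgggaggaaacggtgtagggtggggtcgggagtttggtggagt
Mcm5: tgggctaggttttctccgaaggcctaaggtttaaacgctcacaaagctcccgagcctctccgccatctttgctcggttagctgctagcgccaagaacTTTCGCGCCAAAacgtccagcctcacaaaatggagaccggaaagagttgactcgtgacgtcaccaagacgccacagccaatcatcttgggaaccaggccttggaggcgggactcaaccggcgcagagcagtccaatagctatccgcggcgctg
Pola1: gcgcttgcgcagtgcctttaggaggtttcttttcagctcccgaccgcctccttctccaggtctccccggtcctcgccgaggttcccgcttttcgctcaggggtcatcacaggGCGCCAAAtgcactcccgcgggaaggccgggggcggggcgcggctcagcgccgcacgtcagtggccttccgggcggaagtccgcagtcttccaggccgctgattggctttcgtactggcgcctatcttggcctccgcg
Mcm6: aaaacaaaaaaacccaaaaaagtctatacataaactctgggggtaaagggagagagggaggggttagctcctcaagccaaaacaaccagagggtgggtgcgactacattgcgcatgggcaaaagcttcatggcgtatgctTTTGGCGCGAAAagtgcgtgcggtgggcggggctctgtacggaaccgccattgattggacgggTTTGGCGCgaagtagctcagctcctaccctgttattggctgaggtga
Pcna: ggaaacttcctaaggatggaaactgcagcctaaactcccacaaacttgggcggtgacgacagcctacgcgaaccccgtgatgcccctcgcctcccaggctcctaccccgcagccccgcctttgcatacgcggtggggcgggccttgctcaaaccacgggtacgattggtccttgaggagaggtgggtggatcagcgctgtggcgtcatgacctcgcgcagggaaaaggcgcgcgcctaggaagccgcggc
Rpa3: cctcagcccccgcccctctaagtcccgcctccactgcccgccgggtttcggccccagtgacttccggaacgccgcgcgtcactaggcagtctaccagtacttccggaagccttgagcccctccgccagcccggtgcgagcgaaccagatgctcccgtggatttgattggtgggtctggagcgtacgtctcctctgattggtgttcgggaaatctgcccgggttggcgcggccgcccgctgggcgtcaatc

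Cdc6 and Pola1 had 1 match each, Mcm5 had 2 that overlap, Mcm6 had 3, and Pcna and Rpa3 had 0. The search was repeated over windows of 300 bases, from 250 before to 50 after the start, which RefSeq gave for 37 of the 45 genes and for 8881 of the 11235 tested protein-coding genes. A match to these letters was present in 14 of 37 replication genes (37.84%), against 395 of all 8881 windows (4.448%). Among the replication genes with a window, 8 of 16 called higher in shSafb cells had a match, namely Orc1, Orc3, Cdc6, Mcm5, Mcm7, Pola1, Pold1 and Pold3. Of those called lower, 0 of 5 had one, and of those not past the threshold, 6 of 16 (37.5%) had one: Cdt1, Mcm3, Mcm6, Gins3, Pole2 and Rfc3. Over all tested protein-coding genes with a window, the share with a match was 4.885% of those called higher and 4.096% of those called lower. The CCAAT box (CCAAT, either strand), which binds NF-Y, was found in 23 of 37 replication windows (62.16%), against 39.53% of all windows. The GC box (GGGCGG, either strand), which binds Sp1, was found in 27 of 37 (72.97%), against 66.75% of all windows. The CHR element (TTTGAA, either strand), which binds the MuvB complex, was found in 4 of 37 (10.81%), against 11.61% of all windows. These are matches of letters, and no binding was measured.

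Values are TPM, the transcript level of a gene per length, on a scale shared by all libraries. TPM keeps no read counts, so depth is unknown here and counting error has no interval. Changes are differences of log2(scaled TPM + 1), shSafb minus shCtrl, with their standard error (SE) from limma. They were called higher or lower at a Benjamini-Hochberg adjusted p under 0.05 over the 13111 genes with a mean of at least 1 TPM. The pseudocount makes this scale understate the change of genes at low TPM. Safb, the targeted gene, had 15.8 and 15.02 TPM in the shSafb libraries, against 23.8 and 23.3 TPM in the shCtrl libraries, and fell by 0.56 ± 0.07 on the log2 scale (limma adjusted p = 0.00411). Spearman's rho over tested genes was 0.989 between the shSafb libraries and 0.990 between the shCtrl libraries. The rank correlation lay between 0.951 and 0.952 across the groups. In each shSafb library 13117 genes reached 1 TPM, against 13006 and 12946 in the shCtrl libraries. Mitochondrially encoded genes took 0.318% and 0.343% of the TPM in shSafb libraries, against 0.845% and 0.703% in shCtrl libraries. All 11 of the hepatocyte markers listed reached 1 TPM, and they summed to 13456 and 13283 TPM in shSafb libraries, against 9501 and 9455 TPM in shCtrl libraries. Of these 11, 4 were called higher, 2 lower (Alb and Apoa1) and 5 neither. Trf, the transferrin gene, carried the higher sum, and without it the list summed to 6642 and 6505 TPM in shSafb libraries, against 7048 and 7037 TPM in shCtrl libraries. Albumin (Alb) had 122 and 127 TPM in shSafb libraries, against 378 and 345 TPM in shCtrl libraries, whereas the fetal albumin relative Afp had 27.7 and 26.9 TPM in shSafb libraries, against 2.25 and 2.08 TPM in shCtrl libraries. Of 14 markers of leukocytes, macrophages, endothelial and mesenchymal cells, 3 (Csf1r, Des and Col1a2) reached 1 TPM in any library, and Cd3e, Adgre1, Clec4f, Cdh5 and Lrat were among those listed at 0 in all 4 libraries. That list summed to 4.93 and 5.41 TPM in shSafb libraries, against 3.56 and 3.52 TPM in shCtrl libraries. The macrophage marker Csf1r was called higher, with 1.92 and 1.72 TPM in shSafb libraries, against 0.239 and 0.450 TPM in shCtrl libraries. Without Csf1r the list summed to 3.01 and 3.69 TPM in shSafb libraries, against 3.32 and 3.07 TPM in shCtrl libraries. The part that these markers or the mitochondrial share play in the following results was not tested.

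Of the 45 genes, more were called higher than lower in shSafb cells, and 4 of the 6 steps held a gene called lower. The RNA of 20 genes rose (44.4%), against 21.9% of all tested genes called higher. The RNA of 5 genes fell (11.1%), against 22.4% of all tested genes called lower, and 20 genes were not past the threshold. In either direction 25 genes were called (55.6%), against 44.3% of all tested genes. The 5 that fell were Orc5, Pola2, Pcna, Rfc1 and Rpa3. With a fold of at least 1.5 also asked for on the log2 scale, 10 genes were higher, against 9.94% of all tested genes, and 0 were lower, against 10.7% of all tested genes. The median log2 change was 0.30, over a range of -0.54 to 1.08, against a median of 0.00 over all tested genes. Both shSafb libraries lay above both shCtrl libraries for 31 genes (35.5% of all tested genes did so) and below both for 10 (39.3% of all tested genes), while 4 genes overlapped between the groups. All 45 genes passed the filter on low values, the lowest being Orc1 with a mean of 2.63 TPM over the 4 libraries and the highest Pcna with 116 TPM. The summed level of the 45 genes was 1375 and 1338 TPM in shSafb libraries, against 1254 and 1216 TPM in shCtrl libraries. In RNA from whole cultures, more cells in S phase and more RNA of these genes per cell cannot be told apart. Leaving out 1 library gave 13 genes higher without shSafb 1, 15 without shSafb 2, 16 without shCtrl 1 and 17 without shCtrl 2. Of all tested genes, 13.4%, 13.7%, 16.1% and 16.4% were called higher in the same refits. The genes lower numbered 3 without shSafb 1, 3 without shSafb 2, 4 without shCtrl 1 and 4 without shCtrl 2, beside 15.03%, 15.5%, 16.1% and 16.5% of all tested genes. Kept without each of the 4 libraries in turn were the higher calls of Orc3, Cdc6, Gmnn, Mcm4, Mcm7, Mcm10, Pola1, Pole, Rfc4 and Rrm2. The lower calls of Orc5, Pcna and Rpa3 were also kept. The matching share over all tested genes was not counted, so these names have no background to be read against.

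**Figure D1:**
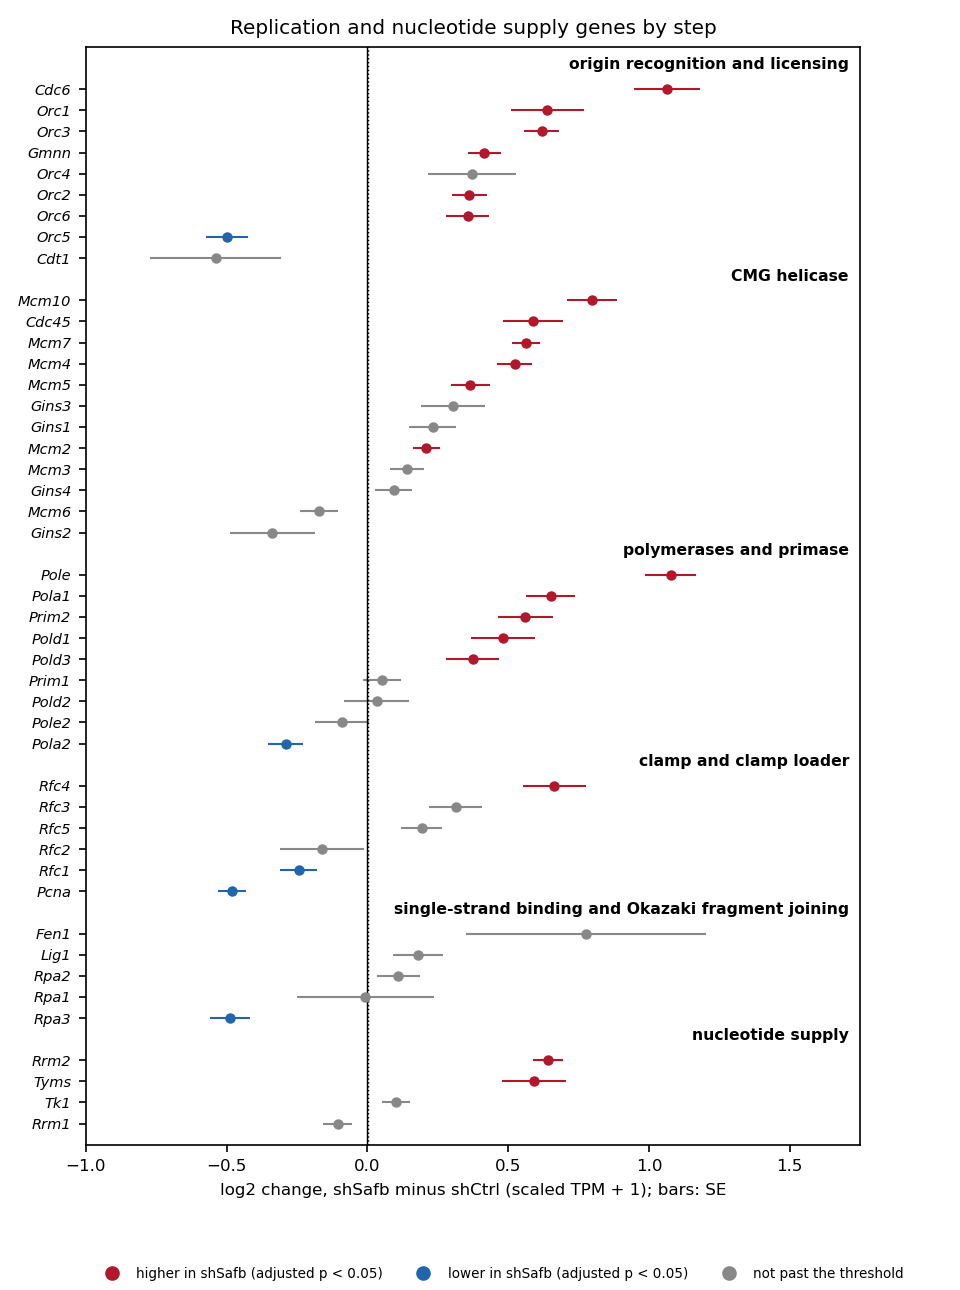
Log2 change of scaled TPM + 1, shSafb minus shCtrl, for the 45 genes, grouped by step from origin licensing at the top to nucleotide supply at the bottom; points are limma estimates, bars are standard errors, colour gives the call, and the dotted line is the median of all tested genes (0.00). Estimates run from -0.54 (Cdt1, not past the threshold) to 1.08 (Pole), and the 20 genes called higher outnumber the 5 called lower.

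Origin recognition and licensing leaned upward, with 6 of 9 genes higher (66.7%) and 1 lower (11.1%), against 21.9% and 22.4% of all tested genes. The other 2 were not past the threshold, and the median log2 change was 0.37. The loader Cdc6 (ENSMUSG00000017499, chr11:98907801-98923940, mm10) changed most in this step: it had 7.74 and 9.17 TPM in shSafb libraries, against 3.56 and 3.60 TPM in shCtrl libraries. Every shSafb value was above every shCtrl value, and Cdc6 averaged 8.45 ± 1.01 TPM in shSafb cells and 3.58 ± 0.0323 TPM in shCtrl cells (SD, n = 2 each), a fold of 2.36. Its log2 change was 1.06 ± 0.12 (SE), with a limma adjusted p of 0.00344. Orc1 (chr4:108579423-108614833), the ORC subunit that in human cells is degraded after S phase begins, had 3.13 and 3.69 TPM in shSafb libraries, against 1.87 and 1.84 TPM in shCtrl libraries. It was the least abundant gene of the 45 and rose by 0.64 ± 0.13 (limma adjusted p = 0.0175). The Orc1 call was lost without shSafb 2, shCtrl 1 or shCtrl 2 (limma adjusted p = 0.0789, 0.0677 and 0.0634) and with no filter on low values (0.0560), within 0.0108 to 0.0789 over all settings run.

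Orc3 (chr4:34570796-34614944), a subunit of the ORC core, had 36.5 and 37.2 TPM in shSafb libraries, against 25.3 and 22.8 TPM in shCtrl libraries. The groups were well apart, and Orc3 rose by 0.62 ± 0.06 (limma adjusted p = 0.00276). Orc5 (chr5:22486485-22550429), another subunit of that core, moved the other way, with 27.9 and 25.1 TPM in shSafb libraries, against 39.1 and 37.9 TPM in shCtrl libraries. Orc5 fell by 0.50 ± 0.07 on the log2 scale, 1.45-fold lower in TPM (limma adjusted p = 0.00747). Genes of subunits that assemble into the same complex thus passed the threshold in opposite directions. Orc2, Orc6 and Gmnn, which encodes geminin, the inhibitor of Cdt1, were also called higher, with log2 changes of 0.36, 0.36 and 0.41 and folds of 1.27 to 1.32. The Orc2 call was lost without shSafb 2 (limma adjusted p = 0.0614, within 0.0110 to 0.0614 over all settings run). The Orc6 call was lost without shSafb 1, shCtrl 1 or shCtrl 2 (limma adjusted p = 0.0834, 0.0778 and 0.0742) and with no filter (0.0562), within 0.0213 to 0.0834. Exons of Nif3l1 on the opposite strand cover 29.8% of the exonic length of Orc2, and Nif3l1 had 11.7 and 12.1 TPM in shSafb libraries, against 23.9 and 26.6 TPM in shCtrl libraries.

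Orc4 and Cdt1 were not past the threshold, and in each the shCtrl libraries disagreed with each other. Orc4 had 37.7 and 38.5 TPM in shSafb libraries, against 35.7 and 24.9 TPM in shCtrl libraries, a log2 change of 0.37 with a 95% interval of -0.04 to 0.78 (limma adjusted p = 0.120). Without shCtrl 1, its change was 0.59 (limma adjusted p = 0.0149, within 0.0149 to 0.260 over all settings run). Cdt1, the licensing factor that geminin binds, had 8.12 and 8.23 TPM in shSafb libraries, against 16.4 and 9.55 TPM in shCtrl libraries. Its log2 change was -0.54 with a 95% interval of -1.15 to 0.07 (limma adjusted p = 0.125). Without shCtrl 2, the change was -0.88 (limma adjusted p = 0.0137, within 0.0137 to 0.265 over all settings run). The ratio of Cdt1 to Gmnn, both in TPM, was 0.295 and 0.298 in shSafb libraries, against 0.763 and 0.474 in shCtrl libraries. This ratio was lower in both shSafb libraries, and 2 against 2 libraries cannot go below p = 0.333 in an exact permutation test, so ratios and shares are given as descriptions here and below.

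**Figure D2:**
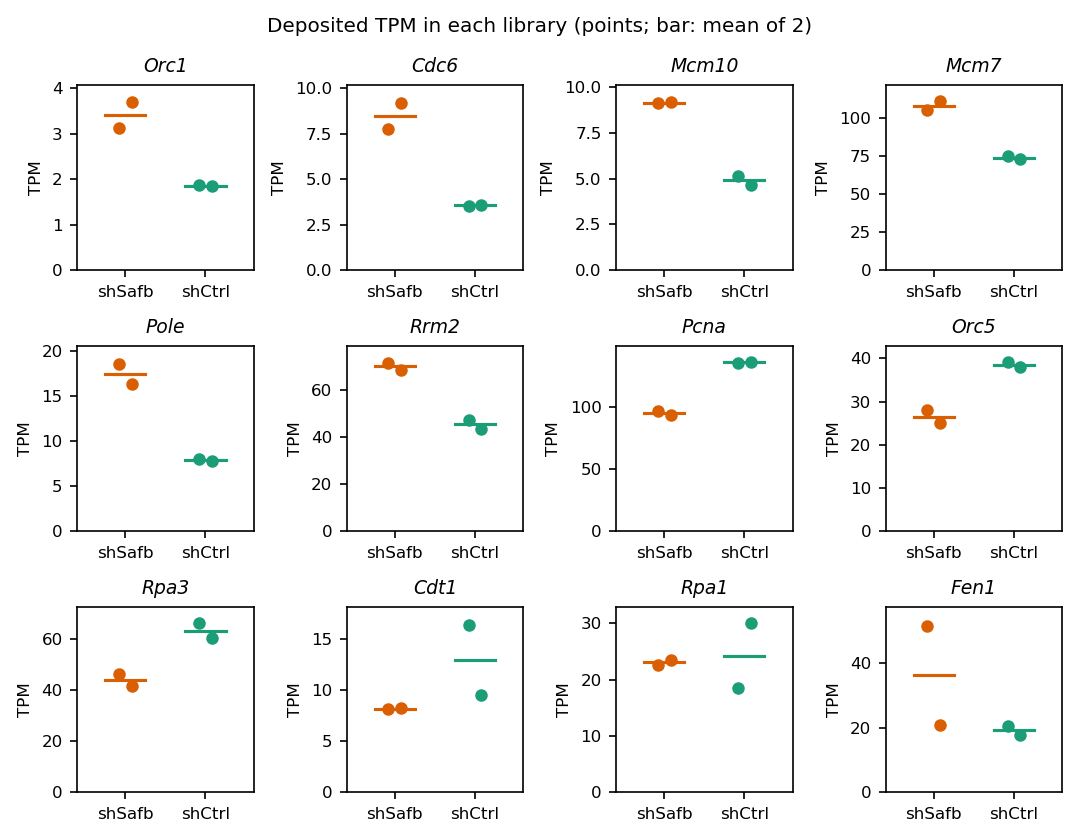
Deposited TPM of 12 genes in each library, shSafb at left and shCtrl at right of each panel, with points for libraries and a bar for the mean of 2; each panel has its own axis from 0. Cdc6 and Pole lie clearly higher in both shSafb libraries, Orc5, Pcna and Rpa3 lower, and Cdt1, Rpa1 and Fen1 have 1 library far from its partner, such as 51.4 TPM against 20.7 TPM for Fen1 in the shSafb libraries.

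The genes of the CMG helicase and of its activator Mcm10 were higher or not past the threshold. Of these 12 genes, 6 were higher (50%) and 0 lower, against 21.9% and 22.4% of all tested genes. Their median log2 change was 0.27. By limma 0 of the 12 were also lower at an unadjusted p under 0.05. The count higher was 3 without shSafb 1, 4 without shSafb 2, 4 without shCtrl 1 and 5 without shCtrl 2. Mcm10 (ENSMUSG00000026669, chr2:4989714-5012791), which helps activate the helicase, had 9.08 and 9.14 TPM in shSafb libraries, against 5.15 and 4.66 TPM in shCtrl libraries. It averaged 9.11 ± 0.0389 TPM in shSafb cells and 4.91 ± 0.352 TPM in shCtrl cells (SD, n = 2 each), and rose by 0.80 ± 0.09 (limma adjusted p = 0.00353). Cdc45 (chr16:18780447-18811987), the helicase cofactor that joins when origins fire, had 13.3 and 11.9 TPM in shSafb libraries, against 7.77 and 8.63 TPM in shCtrl libraries. It rose by 0.59 ± 0.11 (limma adjusted p = 0.0137). The Cdc45 call was lost without shSafb 1 or shCtrl 1 (limma adjusted p = 0.0656 and 0.0514, within 0.0125 to 0.0656 over all settings run).

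Mcm7 (chr5:138164583-138172422), a subunit of the MCM2-7 ring, had 105 and 111 TPM in shSafb libraries, against 75.4 and 73.0 TPM in shCtrl libraries. It rose by 0.56 ± 0.05, 1.46-fold (limma adjusted p = 0.00204). Mcm7 was the most abundant MCM gene in both shSafb libraries, whereas Mcm6 was the most abundant in both shCtrl libraries. Mcm6 (chr1:128331590-128359664) had 88.4 and 92.8 TPM in shSafb libraries, against 101 and 107 TPM in shCtrl libraries. Its log2 change was -0.17 ± 0.07 (limma adjusted p = 0.0969), and it was called lower on TPM without scaling (limma adjusted p = 0.0458, within 0.0458 to 0.305 over all settings run). Mcm2, Mcm4 and Mcm5, also of the ring, were called higher, with log2 changes of 0.21, 0.52 and 0.37. The Mcm2 call was lost without each library, at limma adjusted p = 0.0851 without shSafb 1, 0.122 without shSafb 2, 0.0831 without shCtrl 1 and 0.0642 without shCtrl 2, within 0.0252 to 0.122 over all settings run. The Mcm5 call was lost without shSafb 1 or shSafb 2 (limma adjusted p = 0.0697 and 0.0559, within 0.0116 to 0.0697). Mcm3 had 35.3 and 37.9 TPM in shSafb libraries, against 34.6 and 32.9 TPM in shCtrl libraries, a log2 change of 0.14 with a 95% interval of -0.02 to 0.30 (limma adjusted p = 0.128).

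None of the 4 GINS genes, which encode the partner of Cdc45 in the helicase, was past the threshold. Gins1 had 15.5 and 14.0 TPM in shSafb libraries, against 12.6 and 12.6 TPM in shCtrl libraries, a log2 change of 0.23 with a 95% interval of 0.01 to 0.45 (limma adjusted p = 0.0825). Gins3 had 5.72 and 4.96 TPM in shSafb libraries, against 4.40 and 4.01 TPM in shCtrl libraries, a log2 change of 0.30 with a 95% interval of 0.01 to 0.60 (limma adjusted p = 0.0894). Both shSafb values exceeded both shCtrl values for these genes, and the unadjusted intervals stayed above 0. Gins4, the most abundant of the GINS genes, had 46.3 and 44.7 TPM in shSafb libraries, against 42.3 and 44.5 TPM in shCtrl libraries, with a log2 change interval of -0.08 to 0.27. Gins2 had 3.02 and 3.10 TPM in shSafb libraries, against 4.93 and 3.56 TPM in shCtrl libraries, with a log2 change interval of -0.74 to 0.06. Exons of Gse1 on the opposite strand cover 67.3% of the exonic length of Gins2, so reads of the pair could be mixed if strand was not used in counting.

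Among polymerases and primase, 5 of 9 genes were higher (55.6%) and 1 lower (11.1%), against 21.9% and 22.4% of all tested genes. The other 3 were not past the threshold, and the median log2 change was 0.37. The count higher was 3 without shSafb 1, shSafb 2 or shCtrl 2 and 4 without shCtrl 1. Pole (ENSMUSG00000007080, chr5:110286306-110337474), the catalytic subunit of the leading-strand polymerase epsilon, had the largest log2 change of the 45 genes. It had 18.6 and 16.4 TPM in shSafb libraries, against 8.02 and 7.77 TPM in shCtrl libraries. Pole averaged 17.5 ± 1.53 TPM in shSafb cells and 7.89 ± 0.181 TPM in shCtrl cells (SD, n = 2 each), a fold of 2.22, and rose by 1.08 ± 0.09 (limma adjusted p = 0.00186). Pole2, its accessory subunit, had 5.06 and 4.76 TPM in shSafb libraries, against 5.42 and 5.36 TPM in shCtrl libraries. Both shSafb values were slightly below both shCtrl values, and the log2 change of Pole2 was -0.09 with a 95% interval of -0.35 to 0.16 (limma adjusted p = 0.487). The ratio of Pole to Pole2 TPM was 3.67 and 3.45 in shSafb libraries, against 1.48 and 1.45 in shCtrl libraries.

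Polymerase alpha-primase, which starts every DNA strand, was split. Pola1 (chrX:93304767-93632155), the catalytic polymerase subunit, had 29.4 and 26.8 TPM in shSafb libraries, against 17.2 and 18.4 TPM in shCtrl libraries, and rose by 0.65 ± 0.09 (limma adjusted p = 0.00575). Prim2 (chr1:33453810-33669795), the large primase subunit, had 22.0 and 20.8 TPM in shSafb libraries, against 13.6 and 15.3 TPM in shCtrl libraries, and rose by 0.56 ± 0.10 (limma adjusted p = 0.0116). Without shSafb 1 the Prim2 call was lost (limma adjusted p = 0.0584, within 0.00945 to 0.0584 over all settings run). Pola2 (chr19:5940542-5964202), the accessory subunit, had 19.996 and 19.3 TPM in shSafb libraries, against 25.1 and 24.3 TPM in shCtrl libraries, and fell by 0.29 ± 0.06 (limma adjusted p = 0.0199). Its groups did not overlap, but the Pola2 call was lost without each library. The limma adjusted p of Pola2 was 0.0694 without shSafb 1, 0.0973 without shSafb 2, 0.0655 without shCtrl 1 and 0.0689 without shCtrl 2, within 0.0142 to 0.0973 over all settings run. Prim1, the catalytic primase subunit, had 18.0 and 17.9 TPM in shSafb libraries, against 17.4 and 17.7 TPM in shCtrl libraries, a log2 change of 0.05 with a 95% interval of -0.13 to 0.23. The ratio of Pola1 to Pola2 TPM was 1.47 and 1.39 in shSafb libraries, against 0.687 and 0.759 in shCtrl libraries, so the order of these subunits by level was opposite in the groups.

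Polymerase delta, which extends the lagging strand, had Pold1 (catalytic) and Pold3 (accessory) called higher, with log2 changes of 0.48 ± 0.11 and 0.37 ± 0.09 (limma adjusted p = 0.0268 and 0.0333). The Pold1 call was lost without shSafb 2 or shCtrl 2 (limma adjusted p = 0.101 and 0.0887) and with no filter (0.0683), within 0.0268 to 0.101 over all settings run. The Pold3 call was lost without each library, at limma adjusted p = 0.0599 without shSafb 1, 0.131 without shSafb 2, 0.0501 without shCtrl 1 and 0.113 without shCtrl 2. It was also lost with no filter (limma adjusted p = 0.0753) and without scaling (0.0553), within 0.0333 to 0.131. Pold2, an accessory subunit, had 18.5 and 14.96 TPM in shSafb libraries, against 16.8 and 16.3 TPM in shCtrl libraries, so its groups overlapped. Its log2 change was 0.03 with a 95% interval of -0.27 to 0.34, and -0.11 without shSafb 1 (limma adjusted p = 0.423, within 0.221 to 0.986 over all settings run).

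The clamp and its loader showed no common direction. Of these 6 genes, 1 was higher (16.7%) and 2 lower (33.3%), against 21.9% and 22.4% of all tested genes. The other 3 were not past the threshold, and the median log2 change was 0.01. Without shCtrl 2 the count higher was 2, since Rfc3 passed. Pcna (ENSMUSG00000027342, chr2:132249162-132253314), the sliding clamp and the most abundant of the 45 genes, had 97.2 and 94.1 TPM in shSafb libraries, against 136 and 137 TPM in shCtrl libraries. It averaged 95.6 ± 2.23 TPM in shSafb cells and 136 ± 0.491 TPM in shCtrl cells (SD, n = 2 each), 1.42-fold lower, and fell by 0.48 ± 0.05 (limma adjusted p = 0.00289). Rfc1 (chr5:65261850-65335670), the large subunit of the clamp loader, had 17.9 and 16.9 TPM in shSafb libraries, against 21.6 and 20.7 TPM in shCtrl libraries. It fell by 0.24 ± 0.07 (limma adjusted p = 0.0414). The Rfc1 call was lost without each library, at limma adjusted p = 0.0901 without shSafb 1, 0.172 without shSafb 2, 0.116 without shCtrl 1 and 0.113 without shCtrl 2, and with no filter (0.0589), within 0.0285 to 0.172 over all settings run. Rfc4 (chr16:23113943-23127737), a small loader subunit, had 14.8 and 12.4 TPM in shSafb libraries, against 8.76 and 7.93 TPM in shCtrl libraries. It rose by 0.66 ± 0.11, 1.63-fold (limma adjusted p = 0.0105). Exons of Eif4a2 on the opposite strand cover 12.7% of the exonic length of Rfc4, and Eif4a2 had 112 and 106 TPM in shSafb libraries, against 149 and 152 TPM in shCtrl libraries.

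The other small loader subunits were not past the threshold. Rfc3 had 21.5 and 21.1 TPM in shSafb libraries, against 16.3 and 18.3 TPM in shCtrl libraries, a log2 change of 0.31 with a 95% interval of 0.07 to 0.56 (limma adjusted p = 0.0515). It was the nearest to the threshold of the 20 genes not called, and was called higher without shCtrl 2 (limma adjusted p = 0.0337) and on TPM without scaling (0.0474), within 0.0337 to 0.165 over all settings run. Rfc5 had 19.5 and 20.6 TPM in shSafb libraries, against 17.4 and 18.0 TPM in shCtrl libraries (limma adjusted p = 0.0966). Rfc2 had 15.8 and 21.5 TPM in shSafb libraries, against 21.6 and 20.8 TPM in shCtrl libraries, a log2 change of -0.16 with a 95% interval of -0.56 to 0.23. The low value of Rfc2 came from shSafb 1, and without that library its change was 0.047 (limma adjusted p = 0.716, within 0.0538 to 0.716 over all settings run).

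In single-strand binding and Okazaki fragment joining, limma called 0 of 5 genes higher and 1 lower (20%) at an adjusted p under 0.05. The shares over all tested genes were 21.9% and 22.4%, so the share lower was near that of all genes. The other 4 were not past the threshold. At an unadjusted p under 0.05, limma also gave 0 of the 5 higher. The count higher was 1 without shSafb 2 (Fen1) and 1 without shCtrl 2 (Rpa1). Rpa3 (ENSMUSG00000012483, chr6:8255936-8259173), the smallest subunit of the single-strand binding complex RPA, had 46.1 and 41.7 TPM in shSafb libraries, against 65.9 and 60.3 TPM in shCtrl libraries. It fell by 0.49 ± 0.07, 1.44-fold lower in TPM (limma adjusted p = 0.00709). Rpa1, the large subunit that holds most of the DNA contacts, had 22.6 and 23.5 TPM in shSafb libraries, against 18.5 and 29.9 TPM in shCtrl libraries. Its shCtrl values lay on either side of the shSafb values, and the 95% interval of its log2 change was -0.65 to 0.64. Without shCtrl 1 the change was -0.37 and without shCtrl 2 it was 0.35, each past the threshold (limma adjusted p = 0.0395 and 0.0472), within 0.0395 to 0.988 over all settings run. The direction of Rpa1 therefore depended on which shCtrl library was kept. Rpa2, the middle subunit, had 14.2 and 14.6 TPM in shSafb libraries, against 14.4 and 12.7 TPM in shCtrl libraries, with a log2 change interval of -0.10 to 0.32.

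Fen1 (chr19:10199132-10204169), the flap nuclease that trims Okazaki fragments, had 51.4 and 20.7 TPM in shSafb libraries, against 20.4 and 17.8 TPM in shCtrl libraries. Its log2 change of 0.78 ± 0.43 rested on shSafb 1 (limma adjusted p = 0.201). The change was 1.41 without shSafb 2 (limma adjusted p = 0.00754) and 0.14 without shSafb 1, within adjusted p of 0.00754 to 0.402 over all settings run. Exons of Gm10143 on the opposite strand cover 78.8% of the exonic length of Fen1, and Gm10143 averaged 0.104 TPM over the 4 libraries. Exons of Tmem258, also on the opposite strand, cover 5.37% of it, and Tmem258 had 297 and 274 TPM in shSafb libraries, against 255 and 259.7 TPM in shCtrl libraries. Their part in the Fen1 values was not tested. Lig1, the ligase that seals the fragments, had 16.1 and 15.6 TPM in shSafb libraries, against 15.3 and 13.0 TPM in shCtrl libraries, with a log2 change of 0.18 and a 95% interval of -0.05 to 0.41.

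Nucleotide supply split between subunits and pathways, with 2 of 4 genes higher (50%), 0 lower and 2 not past the threshold by limma. The shares over all tested genes were 21.9% higher and 22.4% lower. The median log2 change of the 4 genes was 0.35. At an unadjusted p under 0.05, 0 of the 4 were lower. Rrm2 (ENSMUSG00000020649, chr12:24708241-24714146), the small subunit of ribonucleotide reductase whose level follows S phase, had 71.5 and 68.5 TPM in shSafb libraries, against 47.1 and 43.6 TPM in shCtrl libraries. It averaged 70.0 ± 2.14 TPM in shSafb cells and 45.3 ± 2.52 TPM in shCtrl cells (SD, n = 2 each), and rose by 0.64 ± 0.05, 1.54-fold (limma adjusted p = 0.00186). Rrm1, the large subunit, had 46.1 and 44.6 TPM in shSafb libraries, against 51.2 and 48.2 TPM in shCtrl libraries. Its log2 change was -0.10 with a 95% interval of -0.24 to 0.03 (limma adjusted p = 0.165). The ratio of Rrm2 to Rrm1 TPM was 1.55 and 1.54 in shSafb libraries, against 0.921 and 0.903 in shCtrl libraries. Tyms (chr5:30058202-30073617), thymidylate synthase of the de novo thymidine route, had 23.1 and 21.4 TPM in shSafb libraries, against 16.5 and 13.0 TPM in shCtrl libraries, and rose by 0.59 ± 0.11 (limma adjusted p = 0.0154). Without shSafb 1 the Tyms call was lost (limma adjusted p = 0.0706, within 0.0123 to 0.0706 over all settings run). Tk1, thymidine kinase of the salvage route, had 45.7 and 46.7 TPM in shSafb libraries, against 44.7 and 42.8 TPM in shCtrl libraries, a log2 change of 0.10 with a 95% interval of -0.03 to 0.23 (limma adjusted p = 0.164).

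Because TPM is a level per gene length, the genes of one complex are set beside each other here. The length used for each gene is not known, and the order and shares of genes, here and above, rest on it. For polymerase epsilon only Pole and Pole2 were summed. Their sum was 23.6 and 21.2 TPM in shSafb libraries, against 13.4 and 13.1 TPM in shCtrl libraries, a ratio of means of 1.69. Pole3, left out, had 19.4 and 18.2 TPM in shSafb libraries, against 15.2 and 17.8 TPM in shCtrl libraries. Pole4, also left out, had 33.7 and 38.7 TPM in shSafb libraries, against 38.1 and 47.2 TPM in shCtrl libraries. Pole2, Pole3 and Pole4 were not past the threshold, so 1.69 rests on Pole and does not stand for the whole complex. Pold4, not summed with polymerase delta, had 109 and 103 TPM in shSafb libraries, against 99.1 and 94.9 TPM in shCtrl libraries, and was not past the threshold. The ratio of means was 1.23 for polymerase delta without Pold4 and 1.21 for ribonucleotide reductase without Rrm2b. It was 1.17 for polymerase alpha-primase, 1.16 for ORC, 1.15 for MCM2-7, 1.07 for GINS, 1.06 for RFC and 0.807 for RPA. RPA was the complex with a lower summed level, at 82.9 and 79.8 TPM in shSafb libraries, against 98.8 and 103 TPM in shCtrl libraries. Rpa3 made up 55.6% and 52.3% of that sum in shSafb libraries, against 66.7% and 58.6% in shCtrl libraries. Rpa1 and Rpa2 were not past the threshold and overlapped between the groups, so the lower sum rests on Rpa3. Shares of subunits within a complex also differed between the groups. Pole made up 78.6% and 77.5% of the sum of Pole and Pole2 in shSafb libraries, against 59.7% and 59.2% in shCtrl libraries. Pole3 and Pole4 are not in this sum. Mcm7 made up 28.0% and 28.5% of the MCM2-7 sum in shSafb libraries, against 22.8% and 21.9% in shCtrl libraries. The share of Mcm6 was 23.5% and 23.8% in shSafb libraries, against 30.5% and 32.1% in shCtrl libraries. Mcm2 kept a share of 17.8% to 17.9% in shSafb libraries, against 17.9% to 18.3% in shCtrl libraries. Within ORC, Orc5 made up 17.0% and 15.5% in shSafb libraries, against 26.3% and 28.6% in shCtrl libraries. The share of Orc3 was 22.1% and 23.0% in shSafb libraries, against 17.1% and 17.2% in shCtrl libraries. The RFC genes stood nearer to each other in shSafb cells, where the highest was 1.45 and 1.73 times the lowest, against 2.47 and 2.62 times in shCtrl cells. RNA shares say nothing of the amounts of protein, which were not measured.

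**Figure D3:**
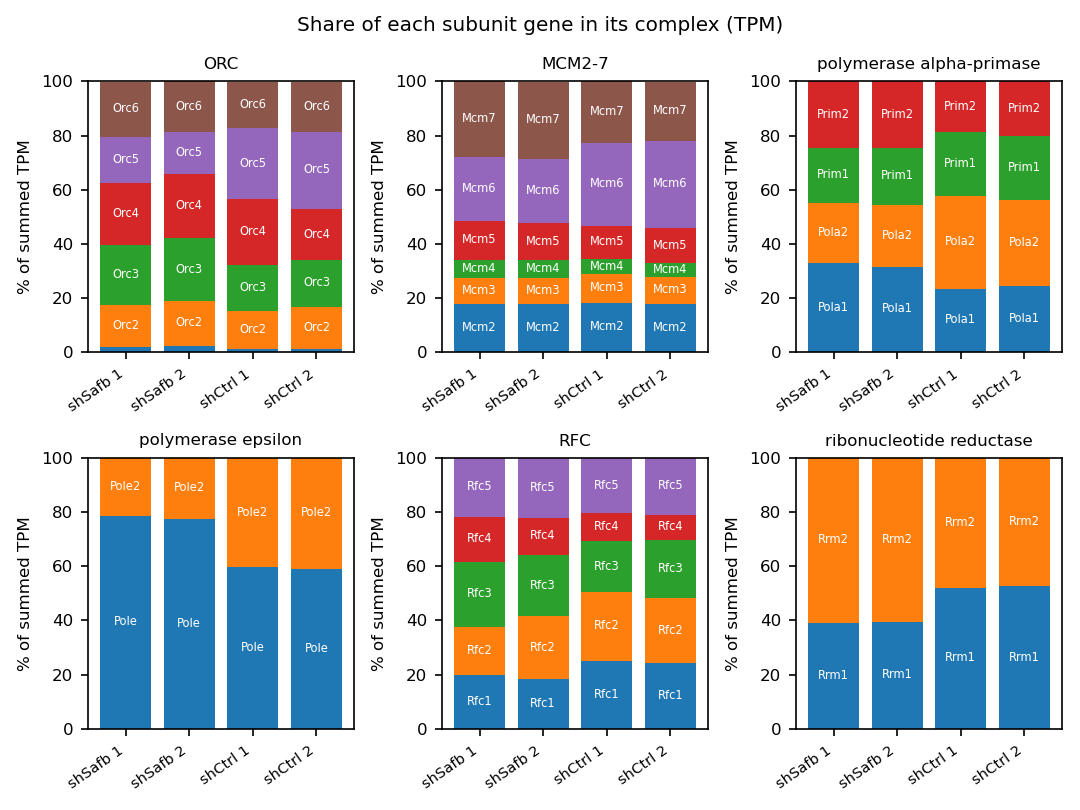
Share of each subunit gene in the summed TPM of its complex, in percent, with 1 stacked bar per library and shSafb libraries left of shCtrl libraries. Panels are ORC, MCM2-7, polymerase alpha-primase, polymerase epsilon (Pole and Pole2 alone), RFC and ribonucleotide reductase (Rrm1 and Rrm2 alone). The share of Pole is 78.6% and 77.5% in shSafb libraries, against 59.7% and 59.2% in shCtrl libraries, and that of Rrm2 is 60.8% and 60.6%, against 47.9% and 47.4%.

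The call did not follow gene length or level closely. The median exonic length was 4513.5 bases for the 20 genes called higher, 6021 for the 5 called lower and 3810 for the 20 not past the threshold. Spearman's rho between exonic length and log2 change was 0.0937 over the 45 genes, against 0.0716 over 11235 tested protein-coding genes. Between mean TPM and log2 change, rho was -0.199 over the 45 genes, against -0.0332 over 13111 tested genes. These are descriptions across genes that share the same 4 libraries. Exons of a gene on the opposite strand overlapped those of 14 of the 45 genes. Of these 14, 7 were called higher and 0 lower, beside 20 (44.4%) and 5 (11.1%) of all 45. Such exons covered at least 10% of the exonic length of 7 genes (Orc1, Orc2, Gins2, Rfc2, Rfc4, Rfc5 and Fen1). The libraries were strand-specific, but the sources used here do not say whether the counting step used strand.

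Partners of the 45 genes were counted in lists of other genes with known roles. Of 34 origin firing and fork partners, 16 were called higher (47.1%) and 2 lower (5.88%), against 21.9% and 22.4% of all tested genes. Another 16 missed the threshold, and the median log2 change was 0.29. Top2a, the topoisomerase that untangles replicated DNA, had 134 and 130.5 TPM in shSafb libraries, against 58.6 and 49.5 TPM in shCtrl libraries, and rose by 1.30 ± 0.08 (limma adjusted p = 0.000878). Dbf4 and Cdc7, which form the kinase that fires licensed origins, both rose by 0.78 (limma adjusted p = 0.00216 and 0.0143). Dbf4 had 16.9 and 17.1 TPM in shSafb libraries, against 9.84 and 9.54 TPM in shCtrl libraries, and Cdc7 had 6.29 and 5.85 TPM in shSafb libraries, against 2.78 and 3.58 TPM in shCtrl libraries. The Cdc7 call was lost without shSafb 1 (limma adjusted p = 0.0663) and with no filter (0.0512), within 0.0127 to 0.0663 over all settings run. Lower were Mcmbp, an MCM-binding protein, at -0.37 and Chtf8, a subunit of the alternative clamp loader, at -0.24 (limma adjusted p = 0.00889 and 0.0143). The Mcmbp call was lost without shSafb 1 (limma adjusted p = 0.0509, within 0.00747 to 0.0509). The Chtf8 call was lost without shSafb 1, shSafb 2 or shCtrl 2 (limma adjusted p = 0.0602, 0.0818 and 0.0520, within 0.00769 to 0.0818). The count of partners higher was 8 without shSafb 1, 7 without shSafb 2, 11 without shCtrl 1 and 13 without shCtrl 2. It was 9 with no filter on low values.

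Of 15 genes for chromatin assembly at forks, 5 were called higher (33.3%) and 2 lower (13.3%), against 21.9% and 22.4% of all tested genes. Another 8 missed the threshold, and the median log2 change was 0.14. Asf1b, a histone chaperone, had 10.1 and 10.99 TPM in shSafb libraries, against 5.52 and 5.83 TPM in shCtrl libraries, and rose by 0.81 (limma adjusted p = 0.00419). Chaf1a, the large subunit of the chromatin assembly factor that PCNA recruits, rose by 0.68, and Uhrf1, which brings the maintenance DNA methyltransferase to new DNA, rose by 0.63 (limma adjusted p = 0.00352 and 0.00180). The histone-binding genes Rbbp7 and Rbbp4 fell by 0.31 and 0.17 (limma adjusted p = 0.0212 and 0.0456). The Rbbp7 call was lost without shSafb 1 or shSafb 2 (limma adjusted p = 0.0903 and 0.0753, within 0.00914 to 0.0903 over all settings run). The Rbbp4 call was lost without each library (limma adjusted p = 0.147 without shSafb 1, 0.175 without shSafb 2, 0.134 without shCtrl 1 and 0.0715 without shCtrl 2) and without scaling (0.0541), within 0.0310 to 0.175. The count of genes lower was accordingly 0 without shSafb 1 or shSafb 2, and 1 without shCtrl 1 or shCtrl 2.

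The wider nucleotide pathways were mixed. Of 18 other enzymes of the deoxynucleotide (dNTP) pool, 5 were called higher (27.8%) and 7 lower (38.9%), while 6 missed the threshold. The shares over all tested genes were 21.9% and 22.4%. The median log2 change of these enzymes was -0.12. Cmpk1, a pyrimidine nucleotide kinase, had 50.4 and 54.1 TPM in shSafb libraries, against 23.8 and 24.7 TPM in shCtrl libraries, and rose by 1.10 ± 0.07 (limma adjusted p = 0.00103). Rrm2b, the p53-inducible small subunit of ribonucleotide reductase, had 15.9 and 14.6 TPM in shSafb libraries, against 6.65 and 7.19 TPM in shCtrl libraries, and rose by 1.06 ± 0.10 (limma adjusted p = 0.00232). Both small-subunit genes of the reductase, Rrm2 and Rrm2b, were therefore higher while Rrm1 was not past the threshold. Dut, the dUTPase that keeps uracil out of DNA, rose by 0.53 (limma adjusted p = 0.00482). Dctd, the dCMP deaminase that feeds thymidylate synthase, had 5.11 and 4.86 TPM in shSafb libraries, against 14.2 and 15.2 TPM in shCtrl libraries, and fell by 1.37 ± 0.09 (limma adjusted p = 0.00118). Guk1, the guanylate kinase, fell by 0.66 (limma adjusted p = 0.00467). Nme2, a nucleoside diphosphate kinase, had 503 and 474 TPM in shSafb libraries, against 1101 and 704 TPM in shCtrl libraries, and fell by 0.82 ± 0.20 (limma adjusted p = 0.0288). The Nme2 call was lost without shSafb 1 or shSafb 2 (limma adjusted p = 0.0822 and 0.0982) and with no filter (0.0768), within 0.00739 to 0.0982 over all settings run. Nme2 has a close paralog, Nme1, and how the counting treated reads that match both was not stated, so the value of Nme2 is uncertain. The count of dNTP pool genes lower was 3 without shSafb 1, 2 without shSafb 2, 5 without shCtrl 1 and 4 without shCtrl 2. The count of those higher was 4 without shSafb 1, shSafb 2 or shCtrl 1 and 5 without shCtrl 2, so the genes lower outnumbered those higher without shCtrl 1 but not without shSafb 1, shSafb 2 or shCtrl 2.

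Of 17 genes of de novo purine and pyrimidine synthesis, 4 were called higher (23.5%) and 7 lower (41.2%), while 6 missed the threshold. The shares over all tested genes were 21.9% and 22.4%, so the share higher was near that of all genes. The median log2 change of the list was -0.23. Ctps, a CTP synthase, had 60.9 and 61.3 TPM in shSafb libraries, against 36.7 and 35.05 TPM in shCtrl libraries, and rose by 0.78 (limma adjusted p = 0.00102). Its paralog Ctps2 fell by 0.50 (limma adjusted p = 0.00465). Gmps, which makes GMP, rose by 0.61, and Umps, which makes UMP, rose by 0.41 (limma adjusted p = 0.00307 and 0.0122). The Umps call was lost without shSafb 1 or shSafb 2 (limma adjusted p = 0.0536 and 0.0598, within 0.0122 to 0.0598 over all settings run). Paics, a bifunctional enzyme of the purine ring, had 96.2 and 88.6 TPM in shSafb libraries, against 131 and 143 TPM in shCtrl libraries, and fell by 0.54 (limma adjusted p = 0.00882). Dhodh, the mitochondrial enzyme of pyrimidine synthesis, had 15.6 and 15.4 TPM in shSafb libraries, against 23.4 and 24.9 TPM in shCtrl libraries, and fell by 0.58 (limma adjusted p = 0.00561). The count of genes lower was 4 without shSafb 1, shSafb 2 or shCtrl 2, and 8 without shCtrl 1. The count of genes higher was 2 without shSafb 1 and 3 without shSafb 2, shCtrl 1 or shCtrl 2.

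Of 18 genes of E2F, pocket protein and MuvB factors, 17 were tested, since E2f2 was under the filter. Among them 7 were called higher (41.2%) and 2 lower (11.8%), against 21.9% and 22.4% of all tested genes. Another 8 missed the threshold, and the median log2 change was 0.27. Rb1, the retinoblastoma protein that restrains E2F, had 15.9 and 17.2 TPM in shSafb libraries, against 9.39 and 8.45 TPM in shCtrl libraries, and rose by 0.85 (limma adjusted p = 0.00268). Its relative Rbl2, the pocket protein of resting cells, had 17.2 and 17.5 TPM in shSafb libraries, against 36.5 and 31.5 TPM in shCtrl libraries, and fell by 0.90 (limma adjusted p = 0.00180). E2f8, a repressor E2F, had 4.29 and 4.24 TPM in shSafb libraries, against 1.996 and 1.96 TPM in shCtrl libraries, and rose by 0.84 (limma adjusted p = 0.00531). Mybl2, the partner of MuvB in cycling cells, had 3.83 and 4.29 TPM in shSafb libraries, against 2.05 and 1.70 TPM in shCtrl libraries, and was also higher (limma adjusted p = 0.00821). The E2F genes did not share a direction. E2f3 had 8.72 and 9.17 TPM in shSafb libraries, against 7.24 and 6.55 TPM in shCtrl libraries, and rose by 0.36 (limma adjusted p = 0.0303). E2f7 rose by 0.73 (limma adjusted p = 0.0142), and E2f4, E2f5 and E2f6 were not past the threshold. E2f2, not tested, had 1.18 and 1.56 TPM in shSafb libraries, against 0.285 and 0.398 TPM in shCtrl libraries. E2f1, an activator E2F, had 7.35 and 7.40 TPM in shSafb libraries, against 10.8 and 9.03 TPM in shCtrl libraries, and fell by 0.36 (limma adjusted p = 0.0433). The E2f1 call was lost without shSafb 1, shSafb 2 or shCtrl 1 (limma adjusted p = 0.137, 0.131 and 0.139), with a lower filter or none (0.0567 and 0.0875) and without scaling (0.0519), within 0.0363 to 0.139 over all settings run. The count of factors higher was 5 without shSafb 1, 5 without shSafb 2, 4 without shCtrl 1 and 6 without shCtrl 2.

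**Figure D4:**
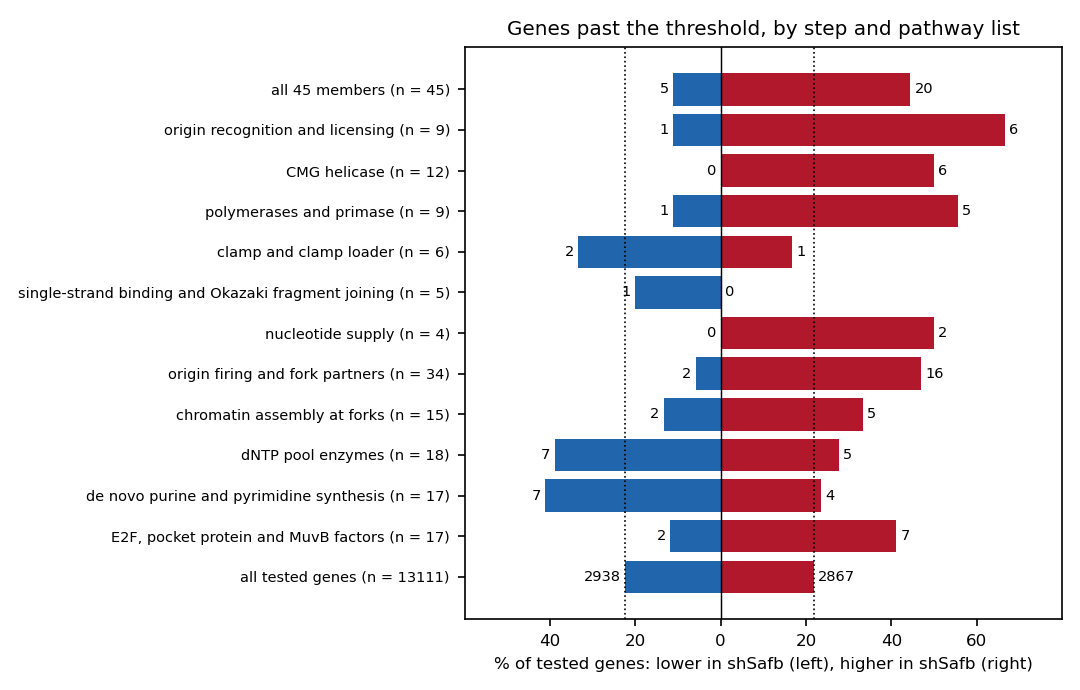
Percentage of tested genes called higher (right of 0) and lower (left of 0) in shSafb cells, for all 45 genes, each step and each list of partner genes, with the number tested beside each name; dotted lines give the shares over all tested genes (21.9% higher, 22.4% lower). Bars for origin licensing reach 66.7% higher and 11.1% lower, whereas de novo purine and pyrimidine synthesis reaches 23.5% higher and 41.2% lower.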

How the data were processed

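The deposited values are TPM, 1 per gene and library, made by the authors with the mm10 genome. The tools HISAT2, HTSeq, StringTie and DESeq2 are listed, without version or order, per the submitters' processing notes. Of the table's 52200 rows, those of 6 repeated identifiers were added up. Coordinates, exons and gene types came from GENCODE mouse release 21 by identifier, and promoter windows from RefSeq tables on GRCm38.p6. Groups and replicate numbers came from the sample titles. Genes with a mean of at least 1 TPM were kept (13111). Each library was divided by its median ratio to the geometric mean (factors 0.992 and 0.995 for shSafb, 1.03 and 0.991 for shCtrl). Then log2(value + 1) was fitted with limma 3.58.1 in R 4.3.3 on group alone. Its empirical Bayes step used an intensity trend. Degrees of freedom were 2 residual and 2.61 prior, tests were two-sided, and p-values were adjusted by Benjamini-Hochberg over all tested genes. Printed levels and their means, SDs, folds, ratios and shares are of the deposited TPM. Intervals are limma's 95% intervals, not adjusted for multiple testing. The fit was also run on simulated data in which far fewer genes changed than were called here. That run gives no error rate for these data. Figures and tables used Python 3.11.15, pandas 2.3.3, numpy 2.4.6 and matplotlib 3.10.9.

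The genes and lists were chosen with earlier results of these data known. Named with values per library were Safb and, in each step, every gene lower or not called and the 3 higher with the largest log2 change. From each partner list up to 3 called genes with the largest change in each direction were named, some by their log2 change alone. Also named were Pole3, Pole4 and Pold4, left out of the sums, and the other E2F genes beside E2f1. The alternatives were another pseudocount, 2 other filters, 2 other scalings, no trend, a fold threshold, the replicate number as a block and leaving out each library.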

Additional observations from a re-analysis of the deposited data

How the results depend on the processing

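All 45 genes were refitted under 12 alternatives. Of the 20 genes higher in shSafb cells, 7 kept their call under all of them and 13 lost it under 1 or more. All 5 genes lower lost theirs under 1 or more, since none reached 1.5-fold. Of the 20 not past the threshold, 6 passed it under 1 or more, and 3 changed sign when 1 library was left out. Pold2 ran from -0.11 (without shSafb 1) to 0.18, Rfc2 from -0.37 to 0.047 (without shSafb 1), and Rpa1 from -0.37 to 0.35 (without shCtrl 2; 0.02 without shSafb 1).

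With at least 1.5-fold also asked for (9.94% of all tested genes higher and 10.7% lower), the counts higher were 10 over all 45 genes, 3 for licensing, 2 for the helicase, 2 for polymerases, 3 for chromatin assembly, 2 for dNTP pool enzymes and 2 for de novo synthesis. Under this threshold the counts lower were 0 over all 45 genes, 0 for firing and fork partners, 0 for chromatin assembly, 3 for dNTP pool enzymes, 0 for de novo synthesis and 1 for E2F factors, and Safb, at -0.56, fell short of it. With no filter (10.2% of all genes higher and 10.97% lower), 3 polymerase genes and 9 firing partners were higher and 1 E2F factor was lower. A filter of 0.1 TPM (15.2% of all tested genes higher and 16.2% lower) also left 1 E2F factor lower. Without scaling, 2 clamp genes were higher, and 1 chromatin assembly gene and 1 E2F factor were lower. Without the trend (20.8% of all tested genes higher and 21.4% lower), 1 chromatin assembly gene and 4 dNTP pool enzymes were lower. The Mcm2 call was also lost without the trend, which left 5 helicase genes higher.

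Leaving out 1 library at a time gave 13 to 17 of the 45 genes higher and 3 to 4 lower, with a median log2 change of 0.23 to 0.30. The same refits called 13.4% to 16.4% of all tested genes higher and 15.03% to 16.5% lower, against 21.9% and 22.4% with all libraries. The genes higher numbered 4 to 5 for licensing, 3 to 5 for the helicase, 3 to 4 for polymerases, 1 to 2 for the clamp, 0 to 1 for single-strand binding and 1 to 2 for nucleotide supply. In the partner lists they numbered 7 to 13 for firing partners, 4 to 6 for chromatin assembly, 4 to 5 for dNTP pool enzymes, 2 to 3 for de novo synthesis and 4 to 6 for E2F factors. The genes lower in those lists numbered 0 to 2, 0 to 1, 2 to 5, 4 to 8 and 1 to 2, in the same order. The log2 change of Safb was -0.60 to -0.52. The lone library left in a group was assumed to vary like the other group.

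With the replicate number as a block, 18 of the 45 genes were higher and 4 lower, beside 19.4% and 20.5% of all tested genes (the calls of Mcm2, Pold3 and Rfc1 were lost), and 1 chromatin assembly gene was lower. The labels do not say what a number shares, and the deviations of libraries with the same number correlated at -0.064, so the numbers were not taken to pair the libraries. With 2 libraries a group, the smallest exact permutation p is 0.333, and TPM without read counts gives no counting error for genes at low TPM.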
